A study of Mus musculus with 109 samples.

Results

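The bait Ch17.B50 is a HindIII fragment inside the gene Kif6 on mouse chromosome 17, read by 4C-seq, a method that sequences whatever DNA was ligated to 1 chosen fragment. Its libraries were found from the reads and not from the titles. Of 39 columns titled as chromosome 16 baits, chromosome 17 baits or 1.5 h, the 4 with the largest percentage of reads within 100 kb of the bait were taken, out of 109 libraries in all. These percentages were 11.9%, 10.2%, 5.94% and 5.27%, and the libraries are numbered 1 to 4 in this order. The next column had 0.0931%, and windows of 50 kb and 200 kb picked the same 4. The libraries were chosen by their reads near the bait, so near-bait values are given below as a description without a test.

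None of the 4 carries the name of this bait. Library 1 is titled as chromosome 16 bait B46 at 30 min after mitosis, library 2 as B46 at 4 h, library 3 as B41 at 1 h and library 4 as B30 at 1.5 h. The title of a library therefore goes against its bait, its time may be wrong as well, and no time course is drawn. All 4 are labelled as replicate 1 of their own title, so nothing in the labels says that they repeat one condition. P-values measure the spread between these libraries only.

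The cells were C127, a mouse line from a mammary tumour. The 4 libraries are labelled as released from a mitotic block with nocodazole. Cells were fixed with formaldehyde, and their DNA was cut with HindIII, ligated, and cut again with DpnII before amplification from the bait. The series followed chromosome contacts at 12 baits after cells left mitosis. The labels' own list of baits names Ch17.B50 2 times and leaves out Ch17.B76, the other bait of chromosome 17.

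Each 4C-seq read reports a HindIII site that lay close to the bait in a cell. Contacts fall with distance along the chromosome. In interphase nuclei they are also shaped by domains of about a megabase, within which sites meet more often, and by compartments, in which gene-rich, GC-rich and early replicating segments meet each other across long distances. In mitotic chromosomes both features are weak or lost. Kif6 encodes a kinesin family motor protein, and Daam2, the neighbouring gene, encodes a formin-related protein of Wnt signalling.

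The sequences below place the bait and the sites with most reads by median share, read from the mm9 genome on the plus strand. Capitals mark the letters of the HindIII site, of which the primers hold the first 4. The Kif6 bait primer, which ends at chr17:49968677, has 1 exact match in the genome. It lies in an intron of Kif6 (ENSMUSG00000023999, chr17:49754461-50049172, plus strand), 2808 bp before the next exon and 70300 bp after the previous one. The primer of the Fam98a-side bait, Ch17.B76 (chr17:76305544-76305564), is shown because that bait is the comparison on this chromosome. It is intergenic, 354258 bp from Fam98a and 26.3 Mb from the Kif6 bait. The sequence around the bait is chr17:49968614-49968739.
Kif6 bait primer: tgaaacacagccatcaAAGC
Fam98a-side bait primer: agatggcaaaccacattAAGC
bait HindIII site: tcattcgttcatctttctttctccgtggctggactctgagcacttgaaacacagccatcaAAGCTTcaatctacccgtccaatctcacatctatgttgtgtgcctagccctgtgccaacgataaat
strongest site within 2 Mb (chr17:49962503-49962568, Kif6 intron): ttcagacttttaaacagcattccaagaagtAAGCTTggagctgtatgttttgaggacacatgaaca
strongest site beyond 2 Mb (chr17:47858018-47858083, near Pgc): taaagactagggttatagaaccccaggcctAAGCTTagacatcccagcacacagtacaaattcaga
strongest site on another chromosome (chr16:29879512-29879577): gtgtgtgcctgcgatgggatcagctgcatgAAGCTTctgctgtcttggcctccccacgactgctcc
second site on another chromosome (chr5:91758247-91758312, near Btc): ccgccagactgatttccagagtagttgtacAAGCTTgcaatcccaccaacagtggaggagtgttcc

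The libraries differed in depth. Library 1 held 1265421 reads at 30132 sites, library 2 1598251 reads at 38844 sites, library 3 283213 reads at 31685 sites and library 4 289399 reads at 18840 sites. A site with 1 read or more is called captured. Read number and near-bait share move together here, as the 2 deep libraries have the larger share of reads within 100 kb. The 4 libraries of the Fam98a-side bait were also chosen by their reads within 100 kb of it, and none carries its name. In the order below, their titles are chromosome 16 baits B41 at 4 h and B46 at 3 h. Then come B30 at 1 h and B41 at 30 min. Their times may be wrong as well. These 4 run the same way. Their percentages near the Fam98a-side bait, 10.1%, 8.49%, 8.06% and 6.86%, follow their read numbers of 1061114, 914363, 203016 and 185000. The part of depth in the near-bait shares was not tested. Reads come from PCR and carry no molecular identifier. Their number does not give the number of ligations, and no interval is given for it.

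Most reads stayed on chromosome 17, and the libraries differed in how far along it they reached. With the 20 kb nearest the bait left out on both sides, reads on other chromosomes made up 27.4%, 32.0%, 27.4% and 12.3% in libraries 1 to 4, so that library 4 had the fewest. Of the reads on chromosome 17, 40.02%, 39.3%, 26.8% and 23.2% lay within 2 Mb. The range from 2 to 10 Mb held 14.6%, 14.8%, 24.5% and 28.3%, the opposite order, and the part beyond 10 Mb held between 45.4% and 48.6%. Libraries 1 and 2 thus put more of their reads close to the bait, and libraries 3 and 4 more at middle distances. The Fam98a-side libraries had 38.2%, 42.2%, 23.3% and 24.7% of their chromosome 17 reads within 2 Mb of their own bait.

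Counted as captured sites, the near share was 7.35%, 7.09%, 7.19% and 7.67%, because nearly every near site was captured. Between 100 and 200 kb, 93.8% to 96.9% of the 65 usable sites were captured in each library. A site was usable if a column of neither chromosome 17 bait had a read there. Near the bait the reads per site carry the difference between libraries, and the captured sites do not.

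Read density, in RPM (reads scaled to the library's total) per usable site, fell in a different shape in each library. In library 1 it was 699 between 50 and 500 kb and 72.0 between 0.5 and 2 Mb, a drop of 9.71 times. The same drop was 7.78 times in library 2, 3.62 times in library 3 and 1.95 times in library 4. From 2 to 10 Mb to 10 to 50 Mb the order turned, with drops of 1.48 times in libraries 1 and 2, 2.31 times in library 3 and 2.67 times in library 4. With both sides pooled, libraries 1 and 2 therefore show a steep fall between the first 2 classes and a nearly flat stretch beyond a few megabases. Library 4 shows a shallow fall near the bait and a steeper one far away. Where the fall lay differed by side. On the telomere side libraries 1 and 2 had 823 and 690 at 50 to 100 kb. At 100 to 200 kb on that side they had 191 and 162.

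**Figure D1:**
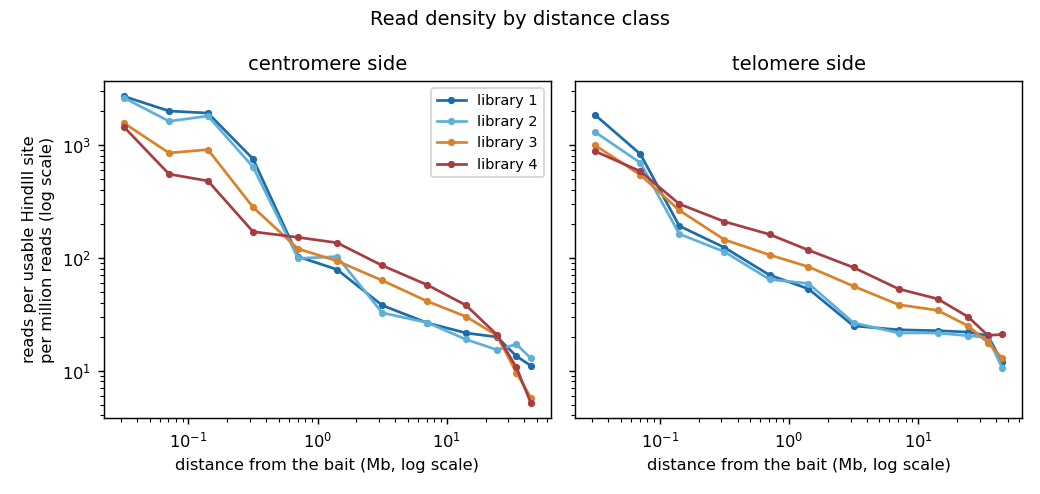
Read density (RPM per usable HindIII site, log scale) against distance from the Kif6 bait (Mb, log scale) on the centromere side and the telomere side, 1 line a library. Libraries 1 and 2 drop by 9.71 and 7.78 times from 50 to 500 kb to 0.5 to 2 Mb, library 4 by 1.95 times.

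Within 2 Mb the contacts lay unevenly around the bait. Of the reads between 50 kb and 2 Mb, the centromere side held 79.8%, 79.2%, 62.3% and 51.1% in libraries 1 to 4. It has 514 usable sites and the telomere side 548. The 3 bins of 100 kb next to the bait on the centromere side, which hold the first part of Kif6 and most of Daam2, took 58.3%, 53.4%, 33.4% and 16.6% of these reads. The 3 bins on the telomere side took 7.71%, 6.83%, 11.1% and 13.4%. The ratio of the 2 sums was 7.56, 7.82, 3.01 and 1.24, so the sides were far apart in libraries 1 and 2 and nearly even in library 4.

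The highest bin on the centromere side was chr17:49818659-49918658 within Kif6, with 21.7%, 18.9%, 12.7% and 6.96% of near reads. The next was chr17:49718659-49818658, which holds the start of Kif6, with 16.9%, 17.8%, 12.01% and 5.47%. The bin beyond it, chr17:49618659-49718658 with Daam2, held 19.6%, 16.7%, 8.70% and 4.18%. In each of the 3 bins libraries 1 and 2 were highest, library 3 was between and library 4 was lowest.

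On the telomere side the highest bin, chr17:50018659-50118658 with the end of Kif6, held 4.31%, 3.90%, 5.27% and 5.15%. The next 2 bins lie in and before Rftn1, which encodes the lipid raft protein raftlin, and held 1.64%, 1.61%, 3.28% and 4.31%, and 1.76%, 1.33%, 2.53% and 3.93%. Here the order was turned, with libraries 3 and 4 above libraries 1 and 2 in all 3 bins.

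Bins given here without a gene name hold no protein-coding gene. The 3 lowest near bins on each side were ranked by median share of near reads, not divided by their 17 to 28 usable sites. On the centromere side they were chr17:48718659-48818658 (0.467% to 0.994% of near reads), chr17:48318659-48418658 with Trem1, Trem3 and Treml4, receptor genes of myeloid cells (0.668% to 1.32%), and chr17:48118659-48218658 (0.501% to 1.58%). On the telomere side they were chr17:51818659-51918658 with Satb1, which encodes an AT-rich DNA binding protein (0.327% to 1.25%), chr17:51718659-51818658 (0.493% to 1.38%) and chr17:50618659-50718658 with Plcl2, a phospholipase C-like gene (0.505% to 2.16%). Each was captured at 68.2% or more of its usable sites in every library.

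Seen gene by gene, Kif6, Daam2 and Mocs1 were above Rftn1 in libraries 1, 2 and 3, while in library 4 Rftn1 was above Daam2 and near Mocs1. RPM per usable site within Kif6, outside 20 kb of the bait, were 1950, 1749, 986 and 692 over 67 sites. Daam2 had 1071, 867, 310 and 170 over 40 sites. Mocs1, which encodes an enzyme of molybdenum cofactor synthesis, had 968, 1242, 429 and 263 over 7 sites. All 3 genes ran from high in libraries 1 and 2 to low in library 4. Rftn1, on the other side at a like distance, had 131, 114, 169 and 250 over 57 sites. AY702103 and Dazl, which encodes a germ cell RNA-binding protein, have 1 usable site each and are not read further.

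The start sites of Daam2 and Rftn1 lie at similar distances, 265 kb and 361 kb from the bait, on opposite sides. Within 20 kb of the Daam2 start the density was 1134, 872, 445 and 204, and within 20 kb of the Rftn1 start 118.4, 202, 238 and 238. The Daam2 start was far above the Rftn1 start in libraries 1 and 2 and slightly below it in library 4. These values rest on 14 and 6 usable sites.

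In windows of 25 kb the centromere-side stretch ended between chr17:49543659-49568658 and chr17:49568659-49593658, the second of which holds Mocs1. Density stepped from 156, 152, 51.5 and 41.8 to 920, 1260, 375 and 271 across this border, and the outer window was low in all 4 libraries. The next window out, chr17:49518659-49543658, had 420, 460, 249 and 246. The one after it had 261, 221, 205 and 282, where libraries 1 and 2 no longer stood above the others. On the telomere side density fell from 961, 757, 628 and 621 at chr17:50018659-50043658, the last window within Kif6, to 142, 106, 162 and 225 at chr17:50118659-50143658, past its end. These windows hold 5 to 12 usable sites each.

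**Figure D2:**
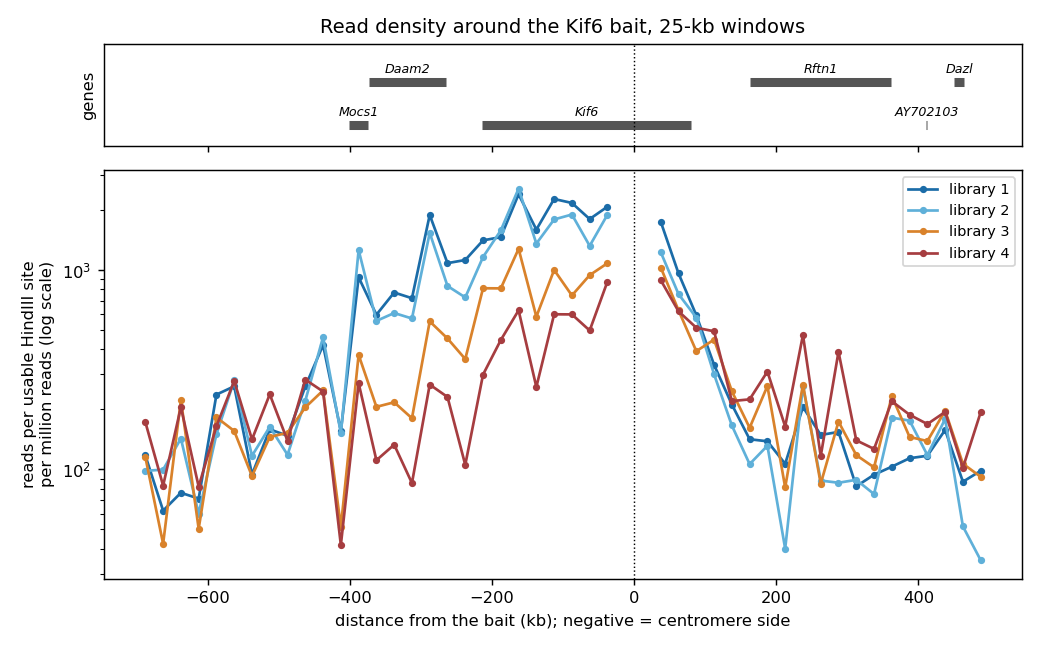
Read density (RPM per usable HindIII site, log scale) in 25-kb windows by distance from the bait (kb), 1 line a library, with the protein-coding genes as bars above and the bait as a dotted line. On the centromere side libraries 1 and 2 stay above libraries 3 and 4 as far as Mocs1, and on the telomere side the lines cross between the windows chr17:50043659-50068658 and chr17:50068659-50093658, past the end of Kif6.

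The 8 sites with most reads by median share all lay in Kif6 introns. The highest, 6.13 kb from the bait at chr17:49962533-49962538, took 1.43%, 1.07%, 0.667% and 0.698% of all reads. The next, at chr17:49947663-49947668, took 0.906%, 0.808%, 0.633% and 0.543%. The bait's own site had 769, 9437, 183 and 56 reads, so that library 2 stood apart. The bait's own site and the highest site lie inside the 20 kb left out of the shares above.

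Beyond 2 Mb the 5 strongest sites had similar median shares, 0.0273% to 0.0305%. The strongest by median share, 5743 bp from the pepsinogen gene Pgc, took 0.0257%, 0.0354%, 0.0219% and 0.102% of reads. It was followed by sites in introns of Med20 and Crb3, in Polh, and near Mrps18a, with medians of 0.0273% to 0.0303%. Of 20317 usable sites beyond 2 Mb, 5860 (28.8%) were captured in all 4 libraries and 2533 (12.5%) in none. These 5 sites were captured in 13 to 24 of the 105 other libraries, so they were read from other baits too.

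Long-range contacts on chromosome 17 were compared with what distance alone gives. Captured sites beyond 2 Mb were counted in 175 bins of 500 kb, in libraries thinned to 11723 captured sites, and divided by an expected number from a smooth curve of captured share against distance. The result is a log2 ratio, where 0 is the value expected at that distance. Libraries 1 and 2 had nearly the same profile, with a correlation across bins of 0.88. Libraries 3 and 4 correlated at 0.63, libraries 1 and 3 at 0.44, and libraries 2 and 4 at -0.03. Neighbouring bins share chromatin and both share the distance curve, so no p is given.

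In libraries 1 and 2 the profile followed base composition. Spearman's rho with GC content over the 175 bins was 0.624 in library 1, 0.617 in library 2, 0.0905 in library 3 and -0.134 in library 4. With gene number it was 0.487, 0.469, -0.0782 and -0.308. Without the HindIII site number in the expected value, an alternative chosen after seeing the data, the rho with GC content in libraries 1 and 2 was 0.361 and 0.359, and with gene number 0.0807 and 0.0782. The bins were also split into 3 classes of GC content. In the lowest class (36.2% to 39.9%) the median log2 ratio was -0.30, -0.30, -0.05 and -0.09. In the highest class (44.3% to 52.6%) it was 0.16, 0.16, -0.02 and -0.12. The bait's own bin has 45.4% GC and belongs to the highest class. Thinning the reads to those of library 3 gave values with GC of 0.592, 0.590, 0.0956 and -0.138 in libraries 1 to 4. Equal reads do not make the number of ligations equal, and the part of depth was not tested.

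Fitting the expected value on each side of the bait moved library 3 most. Libraries 3 and 4 carried a trend along the chromosome: between 40 and 50 Mb, density on the centromere side was 5.74 and 5.18 and on the telomere side 12.9 and 20.9. In libraries 1 and 2 the 2 ends were close, at 11.0 and 12.9 against 11.9 and 10.6. With the expected value fitted on each side of the bait, also chosen after seeing the data, the rho with GC content was 0.607, 0.585, 0.389 and 0.0148. Library 3 then lay between libraries 1 and 2 on one hand and library 4 on the other.

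**Figure D3:**
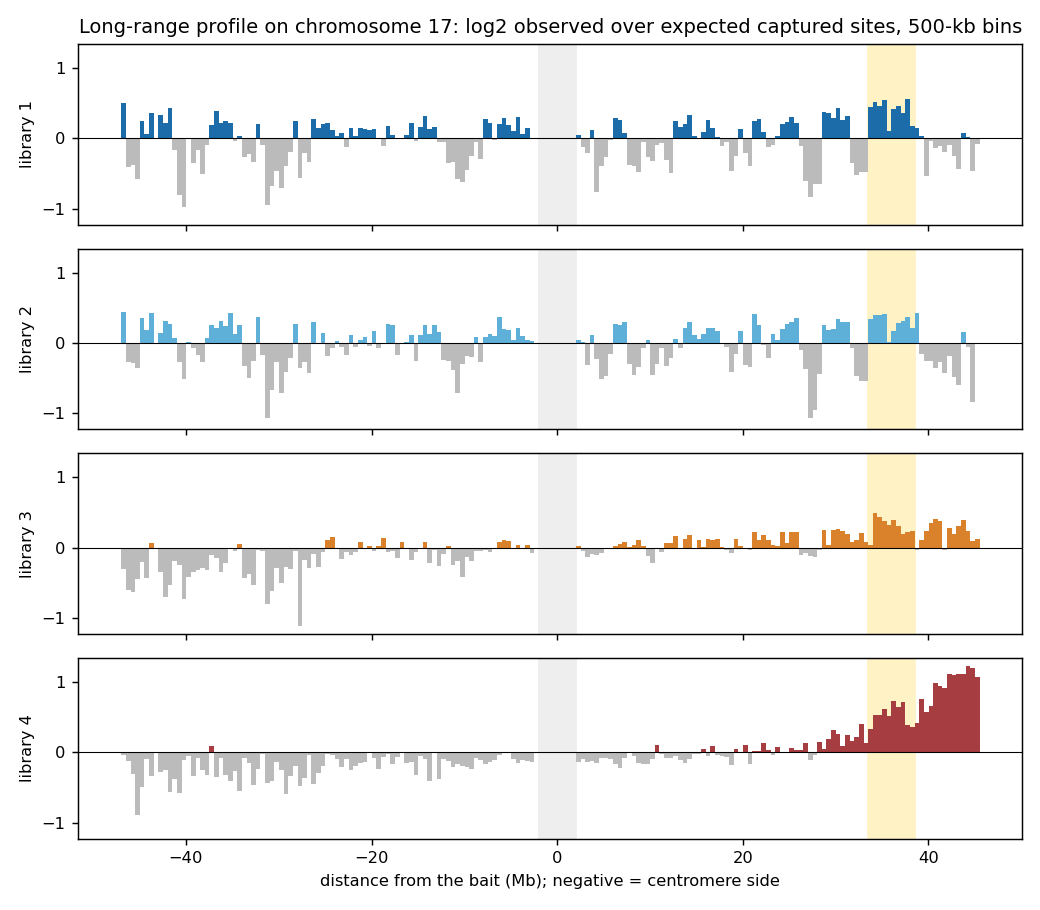
Long-range profile of libraries 1 to 4 on chromosome 17, as log2 observed over expected captured sites in 500-kb bins by distance from the bait (Mb); coloured bars are above 0 and grey bars at or below 0. The grey band is the 2 Mb on each side that was left out and the yellow band the stretch chr17:83500001-88500000, where all 10 bins are above 0 in all 4 libraries.

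Of the 175 bins, 26 were above 0 in all 4 libraries, 41 were below 0 in all 4 and 108 were mixed. Of the 26, 25 lay on the telomere side. Their median GC content was 43.7% against 38.6% for the 41 low bins. With the expected value fitted on each side, 34 bins were above 0 in all 4 libraries and 30 below.

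The longest high stretch was chr17:83500001-88500000, 10 bins with 44 protein-coding genes, with mean log2 ratios of 0.40, 0.29, 0.30 and 0.54. It holds Mta3, a subunit gene of the NuRD chromatin complex, Six2 and Six3, homeobox genes of development, Prkce, a protein kinase C, and Epas1, a hypoxia-inducible factor. The bin of Mta3, Kcng3 and Haao (chr17:84000001-84500000) was the highest of all by median, at 0.52, 0.40, 0.50 and 0.53. The bin of Srbd1, Six3 and Six2 (chr17:86000001-86500000) had 0.41, 0.17, 0.39 and 0.73. With the expected value fitted on each side, 5 of the 10 bins stayed above 0 in all 4 libraries, and the median over the stretch was 0.34, 0.31, 0.10 and 0.03. The height of this stretch in libraries 3 and 4 thus depended on the expected value. The part of their trend along the chromosome was not tested.

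The other 3 of the 5 highest bins lay on the telomere side as well. The bin of Fam82a1, Atl2 and Hnrpll (chr17:80000001-80500000) had 0.44, 0.35, 0.26 and 0.26. The bin of Ston1, Klraq1 and Foxn2 (chr17:88500001-89000000) had 0.15, 0.42, -0.04 and 0.41, below 0 in library 3. The bin of Adcyap1, which encodes the neuropeptide PACAP (chr17:93500001-94000000), had 0.07, 0.16, 0.39 and 1.12, high in library 4 and near 0 in library 1.

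Of the 5 lowest bins, 4 lay on the centromere side. The bin of the vomeronasal receptor genes Vmn2r95 and Vmn2r96 (chr17:18500001-19000000) had -0.95, -1.07, -0.81 and -0.43, below 0 in each library. The bin of Pabpc6 (chr17:9500001-10000000) had -0.98, -0.52, -0.73 and -0.11, and that of Arid1b, a subunit gene of the BAF complex (chr17:4500001-5000000), -0.58, -0.36, -0.44 and -0.89. The bin of Zfp943 and Zfp942 (chr17:22000001-22500000) had -0.56, -0.36, -1.11 and -0.47. The gene-free bin chr17:77000001-77500000, with 36.3% GC, had -0.84, -1.07, -0.12 and -0.11, low in libraries 1 and 2 and near 0 in the others.

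Gene families of chromosome 17 were described by the bins that hold them. The 13 bins with vomeronasal receptor genes, which encode pheromone receptors, had medians of -0.33, -0.27, -0.27 and -0.25, and 9 of the 13 were below 0 in all 4 libraries, against 41 of all 175. With the expected value fitted on each side these medians were -0.26, -0.19, -0.09 and 0.03, so that library 4 changed sign. Their median GC content was 38.1%, against 42.5% over all bins.

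The 7 bins with H2 genes, the histocompatibility genes that present antigens, had medians of 0.15, 0.13, -0.09 and -0.09, and none was above 0 in all 4 libraries. The sign for H2 depended on the expected value: with all HindIII sites in it, library 1 had -0.06, with each side fitted, library 4 had 0.04, and without the site number all 4 were below 0, at -0.30, -0.37, -0.62 and -0.54. The 17 bins with zinc finger genes named Zfp had 0.03, 0.01, -0.06 and -0.19, and the 4 with olfactory receptor genes -0.05, -0.13, -0.03 and -0.11. All bins together had medians of 0.02, 0.02, -0.02 and -0.08, and the olfactory bins were below these in each library, most in library 2. With all HindIII sites in the expected value the olfactory medians were -0.36, -0.36, -0.23 and -0.22. With each side fitted they were -0.03, -0.12, 0.03 and 0.02, against 0.02, -0.001, -0.004 and 0.001 over all bins. In libraries 3 and 4 the olfactory bins were then above all bins.

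Gene-rich and gene-free bins differed in libraries 1 and 2. The 36 bins with 10 or more protein-coding genes had medians of 0.13, 0.06, -0.02 and -0.14, and the 25 bins with 0 such genes -0.30, -0.33, -0.03 and -0.08. In libraries 3 and 4 the 2 sets were closer, and in library 3 their order depended on the expected value. Without the site number the gene-rich bins were at -0.16 and -0.23 and the gene-free bins at 0.04 and 0.13, and with each side fitted library 3 had 0.05 against -0.12.

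The Fam98a-side bait, 26.3 Mb away in a bin of 39.4% GC, allowed a comparison of long-range contacts within 1 chromosome. The question was whether the 2 baits differ in the regions they meet once distance is taken out. Limma compared the log2 ratios of 4 against 4 libraries, unpaired, in 166 bins more than 2 Mb from both baits. With Benjamini-Hochberg adjustment at 0.05, 12 bins passed (7.23% of those tested), 8 higher (4.82%) and 4 lower (2.41%) at the Kif6 bait. In 37 bins (22.3%) the libraries of the baits did not overlap. None of the 12 calls held with the expected value fitted on each side of the bait: 0 bins passed then and 42 had an unadjusted p under 0.05 in limma. The calls therefore rest on 1 distance curve for both sides.

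The 8 higher bins lay in the high stretch described above and, for 2 of them, before it at chr17:79500001-80500000. All 8 lie nearer the Fam98a-side bait than the Kif6 bait, and the 4 lower bins lie nearer the Kif6 bait. Each call was thus lower at the nearer bait, and the part of the distance curve in this was not tested. The largest difference was at the bin of Thada, Plekhh2 and Zfp36l2 (chr17:84500001-85000000). The Kif6 bait libraries had 0.44, 0.36, 0.47 and 0.48 there and the Fam98a-side libraries -0.33, -0.36, -0.07 and -0.14, without overlap. The difference was 0.67 on the log2 scale (SE 0.09, limma adjusted p = 0.00649). The bin of Ttc7 and Socs5 (chr17:87500001-88000000) differed by 0.54 (SE 0.10, limma adjusted p = 0.0128), with 0.50, 0.38, 0.26 and 0.28 against -0.38, -0.13, -0.08 and -0.16. In both bins all 4 libraries of the Kif6 bait were above all 4 of the other bait.

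The bin of Mta3 and Kcng3 differed by 0.50 (SE 0.07), that of Lrpprc, a mitochondrial RNA-binding protein gene (chr17:85000001-85500000), by 0.47 (SE 0.09), and that of Prkce and Srbd1 (chr17:86500001-87000000) by 0.46 (SE 0.08). The other 3 higher bins hold Cdc42ep3, Fam82a1 and Fbxo11, with differences of 0.32, 0.33 and 0.38.

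The 4 lower bins were the vomeronasal receptor bin chr17:20500001-21000000 (-0.47, SE 0.10), 2 bins of Crisp genes, which encode cysteine-rich secretory proteins of the male reproductive tract (chr17:40000001-40500000, -0.49, SE 0.09, and chr17:40500001-41000000, -0.40, SE 0.08), and the bin of Mut and Cenpq (chr17:41000001-41500000, -0.35, SE 0.07). At the first Crisp bin the Kif6 bait libraries had -0.37, -0.22, -0.16 and -0.23 and the Fam98a-side libraries 0.15, 0.13, 0.41 and 0.30. Without library 1, 4 of the 8 higher bins, those of Mta3, Thada, Prkce and Ttc7, and 0 of the 4 lower bins passed in limma, where 39 bins had an unadjusted p under 0.05. Without library 4, 10 higher and 7 lower passed. Beyond 5 Mb from both baits, 5 higher and 0 lower bins passed.

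**Figure D4:**
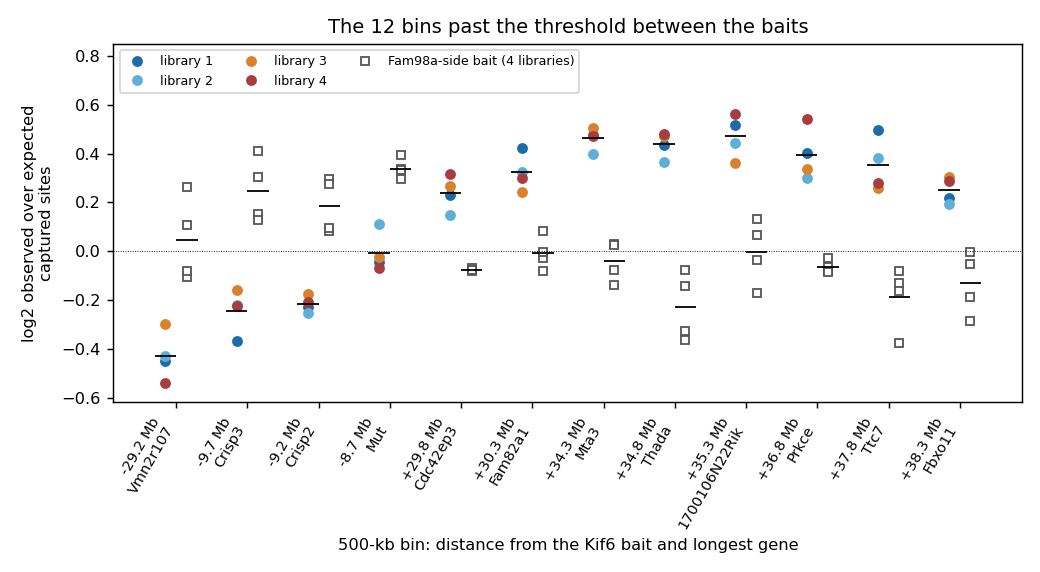
The 12 bins that passed the limma threshold between the baits, ordered along the chromosome, as log2 observed over expected captured sites; filled circles are libraries 1 to 4 of the Kif6 bait, open squares the 4 libraries of the Fam98a-side bait and bars the group means. In each of the 12 bins the libraries of the baits do not overlap, as in 37 of all 166 bins tested (22.3%). The 12 were picked on these same values, so this is no further support. With the expected value fitted on each side of the bait, 0 of the 12 passed.

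The region around each bait was also read in the other bait's profile, without a test. Over the 3 bins around the Fam98a-side bait, the Kif6 bait libraries had log2 ratios of -0.17, -0.03, 0.01 and 0.06. In the other direction, the bins around the Kif6 bait had 0.13, 0.09, 0.24 and 0.27 from the Fam98a-side bait. The first set lies on both sides of 0, and the second is above 0 in all 4 libraries.

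The relation to GC content was tested with 1 value a library. On chromosome 17 the mean rho was 0.294 at the Kif6 bait and -0.182 at the Fam98a-side bait, a difference of 0.477 (two-sided exact permutation test, p = 0.0857, n = 4 against 4, smallest possible p 0.0286). The libraries of the Kif6 bait had 0.612, 0.604, 0.0723 and -0.111, and those of the other bait -0.279, -0.373, -0.0853 and 0.00844. Only library 4 overlapped the other bait. Leaving out 1 library at a time gave exact permutation p-values of 0.143 without library 1, 0.143 without library 2, 0.0857 without library 3 and 0.0286, the smallest possible, without library 4. The last leaves out the library seen to overlap, so its p is fixed by that choice and is no support.

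On the chromosomes that carry no bait, captured sites in 2195 bins of 1 Mb had a rho with GC content of 0.524, 0.530, 0.245 and 0.0412 in libraries 1 to 4. Libraries 1 and 2 were highest, library 3 was between and library 4 was lowest, in contacts that the distance curve does not touch. The Fam98a-side libraries had 0.218, 0.154, 0.0721 and 0.184. The means, 0.335 and 0.157, differed by 0.178 (two-sided exact permutation test, p = 0.257, n = 4 against 4). The exact permutation p was 0.457, 0.457, 0.257 and 0.0286 without libraries 1, 2, 3 and 4 in turn. The last is the smallest possible and leaves out the library seen to be lowest, so it is fixed by that choice and is no support. The libraries differed in captured sites on other chromosomes, from 5812 in library 4 to 24423 in library 2. With each library thinned to 4664 sites the 4 values were 0.369, 0.329, 0.140 and 0.0410.

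**Figure D5:**
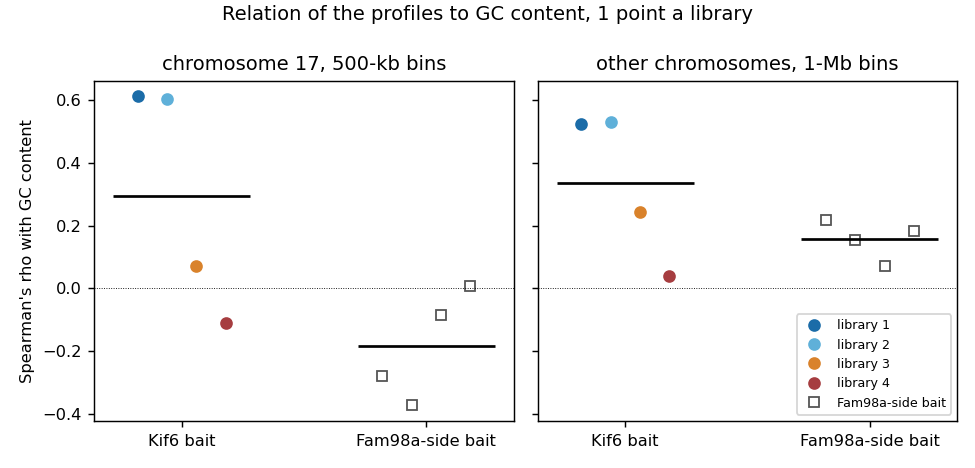
Spearman's rho between contact profile and GC content, 1 point a library, for chromosome 17 in 500-kb bins and for the other chromosomes in 1-Mb bins; circles are the Kif6 bait, squares the Fam98a-side bait and bars the means. Libraries 1 and 2 lie above 0.5 in both panels, while library 4 lies among the libraries of the other bait on chromosome 17 and below all of them on the other chromosomes.

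Contacts with other chromosomes were compared with the other 35 columns of the 39, which hold other baits. Reads in 1-Mb bins were tested with edgeR's quasi-likelihood test. Of 2232 bins, 2 passed at an adjusted p of 0.05 (0.0896%), both higher at the Kif6 bait, and 211 had an unadjusted p under 0.05. DESeq2's Wald test called 6, 3 in each direction.

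Both calls depend on few sites. The bin chr5:91000001-92000000, with Parm1, Mthfd2l and the growth factor gene Btc, had 1780, 1514, 557 and 4060 CPM (reads scaled to the tested total), a log2 fold change of 2.08 (SE 0.41, edgeR adjusted p = 0.00658). The single site chr5:91758277-91758282 gave 49.9%, 26.6%, 7.89% and 89.1% of the bin's reads. The 30 bases on either side of this site occur 166 and 517 times in the mm9 genome, so its reads cannot be placed with certainty. The bin chr4:153000001-154000000, with Prdm16, Megf6 and Trp73, had 737, 113, 630 and 4155 CPM, a log2 fold change of 2.34 (SE 0.49, edgeR adjusted p = 0.0102). In library 4, 99.2% of its reads were 130 reads at 1 site that the other 3 libraries did not capture. Without library 4, 0 bins passed in edgeR and 124 had an unadjusted p under 0.05. On captured sites in place of reads 0 bins passed and 86 had one.

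Few sites on other chromosomes recurred. Of 793921 such sites, 56950 were captured in exactly 1 of the 4 libraries, 3462 in 2, 228 in 3 and 70 in all 4. Pairs of the 4 libraries shared 1.45 to 2.67 times the number of sites that independent draws would give. Against the 105 other libraries the median was 1.20 to 1.25 times, and the highest single value 1.54 to 1.75 times.

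The site with the highest median share on another chromosome was chr16:29879542-29879547, 79037 bp from Gm1968, with 1068, 318, 25 and 270 reads. It was captured in 23 of the 105 other libraries, 20 of them among the 35 columns above. Another bait of the series, Ch16.B30, lies on the same chromosome at chr16:30595243-30595262, and library 4 is titled as B30. Whether reads of that bait entered the 4 libraries was not tested, so the site cannot be read as a contact of the Kif6 bait. The Sfi1 intron site on chromosome 11 was captured in 93 of the 105, and library 4 did not have it. The remaining 2 of the top 5 lay 172709 bp from Gm6404 on chromosome 13 and in an exon of Mcart1 on chromosome 4, with median shares of 0.00933% and 0.00732%. Of the top 5, only the chromosome 5 site was captured in 0 of the 105 other libraries.

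Of the 70 sites captured in all 4 libraries, 14 were captured in none of the 105 others. By median share the first was the chromosome 5 site near Btc shown above, with 264, 178, 3 and 114 reads, which lies in repeated sequence. The next was chr5:144176416 in an intron of Kdelr2, which encodes a receptor for retrieval of endoplasmic reticulum proteins, with 87, 169, 10 and 18 reads. Sites in introns of Magi2 (108, 45, 7 and 10 reads) and Exosc3 (30, 16, 4 and 15) and 1 site 10216 bp from the interferon gene Ifng (30, 31, 5 and 5) followed. The other 9 had 1 to 11 reads in each library. Within 500 bp of the first 5 of these sites the longest match to the last bases of the bait primer was 0 to 8 bases, and 4.90% of 580272 usable sites had 8 or more.

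Whole chromosomes were compared as shares of captured sites over the 17 chromosomes without a bait, by exact permutation of 4 against 35 libraries (82251 arrangements, two-sided). Chromosome 12 was the only 1 of the 17 to pass after Benjamini-Hochberg adjustment (5.88%). The 4 libraries had 4.29%, 4.05%, 4.16% and 4.44% there, a mean of 4.23% ± 0.167 (SD, n = 4) against 3.75% ± 0.199 (SD, n = 35). The difference was 0.485 percentage points (exact permutation p = 7.29e-05, adjusted p = 0.00124), and the groups overlapped. The permutation treats all libraries as exchangeable, but the 4 share 1 bait and libraries of another bait may also group. Its p therefore does not measure the spread between baits. Chromosome 12 holds 4.78% of the usable sites of the 17 chromosomes, above both means.

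Chromosomes 14 and 19 were higher by 0.286 and 0.542 percentage points but did not pass (adjusted p = 0.0654 for both, exact permutation). Chromosome X had 3.24%, 3.30%, 3.85% and 3.35% against a mean of 3.81%, a difference of -0.377 percentage points that did not pass (exact permutation p = 0.0931, adjusted p = 0.264). Against the 4 Fam98a-side libraries alone, chromosome 12 was higher by 0.260 percentage points and did not pass (adjusted p = 0.208, exact permutation).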

How the data were processed

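4C-seq libraries of mouse C127 cells were analysed. The authors deposited raw read counts per HindIII site for 109 columns at 823352 sites, and these counts were used unchanged. The submitters' processing notes name BWA 0.5.9 as a tool and mm9 as the build. Read filters are not given in the sources used here. All sites equalled the HindIII sites of mm9, and genes are from the GENCODE annotation of that build. The libraries and gene lists were chosen with earlier results of these data known.

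The 20 kb nearest the bait on both sides were left out of shares, and 50 kb of the near profile. Profiles used captured sites in 500-kb bins with 40 or more usable sites, an expected value by lowess over log distance with span 0.5 and pseudocount 0.5, equal captured sites per library and 10 draws. Tests were limma 3.58.1 (robust eBayes), edgeR 4.0.16 (filterByExpr, TMM, robust glmQLFit, glmQLFTest), DESeq2 1.42.0 as an alternative, and exact permutation, at an adjusted p of 0.05. The SE of an edgeR fold change was taken from the F statistic. Bins are named with up to 3 of their longest protein-coding genes: the 3 highest and lowest near bins per side, the 5 highest and lowest long-range bins 2 Mb apart, the 5 largest differences each way, the 10 on other chromosomes, and the 5 top sites there. Other bins and sites named were chosen after their values were seen. Scripts were tested on simulated data. Python 3.11.15 and R 4.3.3 were used.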

Additional observations from a re-analysis of the deposited data

Results flagged for a closer look

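Of 87 sets of 4 library values, 3 had 1 library so far from the others that its gap exceeded Dixon's critical value for 4 samples, and chance gives about 1 in 20. Library 2 had 9437 reads at the bait's own site, against 56 to 769 in the others. Library 4 had 4155 CPM in the chromosome 4 bin of Prdm16, almost all at 1 site. Library 4 also had 0.102% of its reads at the strongest site beyond 2 Mb, near Pgc, against 0.0219% to 0.0354% in the others.

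Among the 70 columns of chromosome 8 baits, which entered no test between baits and only the counts of usable and shared sites, 1 had reads near the Kif6 bait beyond the others. The column titled chromosome 8 bait B87 at 3 h had 0.0520% of its reads within 100 kb, 374 reads at 1 site, where the median of the 70 was 0.000917%.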

How the results depend on the processing

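Of 332 values under alternatives, 257 kept their direction and their side of the threshold, or moved by less than the spread between libraries. On captured sites the median share of other chromosomes was 56.0%, of chromosome 17 within 2 Mb 7.27% and beyond 10 Mb 72.9%; with 50 kb left out the last was 49.2%. The rho of library 1 with gene number was 0.0807 without the HindIII site number in the expected value. Bins called between the chromosome 17 baits numbered 5 beyond 5 Mb, 19 with reads capped at 10 per site, 40 with all HindIII sites in the expected value, 62 without the site number and 0 with each side fitted (42 with an unadjusted p under 0.05 in limma). On other chromosomes edgeR called 0 bins on captured sites, 1 in 2-Mb bins and 0 against the Fam98a-side libraries alone (100 with an unadjusted p under 0.05), and DESeq2 called 6. The chromosome 4 bin had a log2 fold change of -0.22 on captured sites, the opposite sign. No chromosome was called against the Fam98a-side libraries (0 of 17). Leaving out 1 library at a time gave 4 to 17 bins between the baits (fewest without library 1), 0 to 5 bins on other chromosomes (fewest without library 4), 1 chromosome each time, differences in rho of 0.370 to 0.612 on chromosome 17 and 0.113 to 0.276 elsewhere, and median shares of 27.4% on other chromosomes, 26.8% to 39.3% within 2 Mb, 14.8% to 24.5% at 2 to 10 Mb, 45.9% to 48.4% beyond, and 62.3% to 79.2% on the centromere side. The causes were not tested. The expected values from all HindIII sites, without site number, and fitted on each side, the thinned reads and sites, the other windows of the rule and the near profile without each library were chosen after seeing the data. No paired analysis was possible because the 4 libraries carry titles of other baits and are all labelled replicate 1. The depth of libraries 3 and 4, with 283213 and 289399 reads, and the 5812 captured sites of library 4 on other chromosomes limit single bins and sites there.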
